A study of Mus musculus with 27 samples.

Results

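Insulin signalling and glucose transport were followed through 34 named genes, from the insulin receptor to the glucose transporters and the mTOR kinase. The genes were listed by pathway role, with earlier results of these data known. Of them, 31 had a probe set annotated to their symbol alone and were measured, among 18781 genes in all. Enpp1, Rhoq and Gsk3a were not analysed here. Where a gene had several probe sets, which was so for Insr, Akt2 and Inppl1, the brightest set by its mean over 27 arrays stood for it. The cells were mature 3T3-L1 adipocytes, fat cells derived in culture from a mouse preadipocyte line with dexamethasone, insulin and an inhibitor of phosphodiesterase, and then kept in growth medium without added insulin. The untreated group (n = 3 arrays) carried the time point 0, and cells given 1 µM rosiglitazone in DMSO formed 8 groups of 3 arrays, taken at 0.5 (30 min), 1, 2, 6, 12, 24, 36 and 48 h. The series' design text mentions DMSO alone, but 0 of the samples used here are labelled so, and the drug cannot be told apart from its solvent, time in culture or handling.

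When insulin binds, the receptor phosphorylates the adaptors IRS1 and IRS2, which recruit PI3-kinase. PI3-kinase makes a membrane lipid that lets PDK1 and mTORC2 activate Akt. Akt then inhibits the GTPase-activating proteins TBC1D4 and TBC1D1, which releases vesicles holding the transporter GLUT4 to the cell surface. It also holds the forkhead factors FOXO1 and FOXO3 out of the nucleus and relieves the TSC complex's restraint of mTORC1. Rosiglitazone is an insulin-sensitising drug whose receptor, PPARγ, controls many genes of the fat cell.

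Against untreated cells Irs2 was higher from 1 h on and Irs1 lower from 12 h on. Both fell between 2 h and 48 h (-0.38 for Irs1 and -0.46 for Irs2, limma adjusted p = 0.000369 and 5.75e-05). The upstream sequence of both holds the E-box CACGTG, the letters bound by several basic helix-loop-helix factors. Whether this site has a part in the changes of either gene was not tested. The 250 bases before the start of each gene are shown from RefSeq (build GRCm38.p6), 5′ to 3′ on the gene's strand, with the E-box in capitals. The Irs1 stretch lies at chr1:82291440-82291689 on the minus strand, with the E-box beginning 115 bases before the start. The Irs2 stretch lies at chr8:11008930-11009179 on the minus strand, with the E-box beginning 44 bases before the start.
Irs1: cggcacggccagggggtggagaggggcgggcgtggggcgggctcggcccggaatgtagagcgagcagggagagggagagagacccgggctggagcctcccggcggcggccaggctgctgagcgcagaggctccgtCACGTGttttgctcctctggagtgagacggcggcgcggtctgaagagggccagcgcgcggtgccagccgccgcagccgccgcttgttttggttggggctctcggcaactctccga
Irs2: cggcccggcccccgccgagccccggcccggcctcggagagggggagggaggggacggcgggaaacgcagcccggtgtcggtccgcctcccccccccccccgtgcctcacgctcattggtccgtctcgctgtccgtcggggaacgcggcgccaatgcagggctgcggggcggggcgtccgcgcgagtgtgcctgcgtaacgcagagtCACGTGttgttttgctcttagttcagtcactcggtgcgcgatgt

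The RefSeq promoter table matched 28 of the 31 measured genes, with 41 start sites. CACGTG lay in this window at 2 of the 41 start sites, those of Irs1 and Irs2, against 6.02% of all 32851 promoters. AGGTCA, the core site of many nuclear receptors, was present at 3 of the 41 (Akt1, Inppl1 and Pdpk1), against 14% of all promoters. The direct repeat of AGGTCA with any 1 base between the copies, called DR1 and bound by PPAR with RXR, was present for 0 of the 28 genes and in 0.0335% of all promoters. GTAAACA, a forkhead site, was present at 1 of the 41 start sites, that of Akt1, and in 3.17% of all promoters. Differences between these shares were not tested. Both strands were searched, each DR1 also contains AGGTCA, and each match describes letters in this window alone.

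Intensities are on the log2 scale and changes are log2 fold changes ± SE from limma, with n = 3 arrays in each group. A gene is said to have risen or fallen where limma's p, adjusted over all 18781 genes by the Benjamini-Hochberg method, was below 0.05. The labels do not say whether the 3 arrays of a group came from separate cultures, so p-values reflect array-to-array spread that may be purely technical. Array medians ran from 4.02 to 4.13. The mean correlation of an array with its own group was between 0.9957 and 0.9981, lowest in the 36 h group. Precision is limited by having 3 arrays a group. The SE of a change had a median of 0.088 over all genes. The 7 adipocyte markers Adipoq, Fabp4, Plin1, Lpl, Cd36, Lipe and Pparg lay between 10.93 and 12.23 in untreated cells. The markers of macrophages (5 genes), endothelium (3) and skeletal muscle (4) lay between 2.68 and 5.02. Of the 7 adipocyte markers, 3 rose and 1 fell at 6 h and again at 24 h, and 1 rose and 1 fell at 48 h. Of 6 measured preadipocyte or fibroblast markers, 2 fell at 6 h, 6 after 24 h and 5 after 48 h. Among all genes 8.39%, 10.1% and 12.6% rose at these times, and 8.18%, 10.5% and 11.4% fell. Brighter genes were not counted by direction. The summed linear intensity of the preadipocyte or fibroblast markers went from 3578 to 3667 in untreated arrays to 2625 to 2746 at 48 h. The part of the cell types marked in the changes below was not tested. In such bulk RNA, fewer cells of a type and less RNA per cell cannot be told apart.

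Over the whole course, 25 of the 31 genes (80.6%) changed by limma's F-test, against 40.5% of all genes and 66.1% of genes whose mean lay above the median of all genes, as it did for 29 of the 31. At single times, 15 genes rose only, 9 fell only and Slc2a1 did both. The matching shares were not counted for all genes or for genes above the median mean. A gene has several chances of a call across the times, so these counts alone do not set the list apart from other genes. Pik3ca, Pik3cd, Grb10, Inppl1, Slc2a4 and Rab10 passed at no single time. Of the 31 genes, 7 passed the F-test with a change of at least 0.5 at some time, against 1955 of all 18781 genes (10.4%). The share of genes above the median mean was not counted for this measure. The largest change of the other 24 ranged from 0.11 to 0.496 in size.

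Against untreated cells, 0 of the 31 genes changed at 30 min by limma, where 0.0479% of all genes did and 4 of the 31 had an unadjusted p below 0.05. At 1 h Irs2 alone rose (3.23% of the 31), when 0.474% of all genes rose and 0.516% fell, 0.99% together. At 2 h 2 rose and 2 fell (12.9%), when 3.04% of all genes rose and 2.87% fell, 5.91% together. At 6 h 9 rose and 2 fell (35.5%), when 8.39% of all genes rose and 8.18% fell, 16.6% together. A further quantile normalization gave 8 and 4 at that time. At 12 h 8 rose and 7 fell (48.4%), when 9.48% of all genes rose and 9.38% fell, 18.9% together. Centring each array on its median gave 10 and 5. At 24 h 12 rose and 7 fell (61.3%), when 10.1% of all genes rose and 10.5% fell, 20.7% together, and centring gave 12 and 4. At 36 h 10 rose and 7 fell (54.8%), when 10.9% of all genes rose and 10.5% fell, 21.4% together. With only the 6 arrays compared in the model, 7 rose and 4 fell. At 48 h 10 rose and 6 fell (51.6%), when 12.6% of all genes rose and 11.4% fell, 24% together.

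Most of the 31 genes are bright, and bright genes were called more often. Among genes above the median mean the shares called at the 8 times, from 30 min to 48 h, were 0.0958%, 1.65%, 10.1%, 29.3%, 32.7%, 35.7%, 35.9% and 39.4%. The median change of the 31 genes was 0.086 at 6 h, 0.13 at 24 h and 0.061 at 48 h, against -0.0080, -0.0045 and 0.013 over all genes. The 3 treated arrays all lay to one side of the 3 untreated ones for 4 of the 31 genes at 30 min (15.5% of all genes), 8 at 1 h (16.6%) and 8 at 2 h (24.7%). From 6 h to 48 h the counts were 21 (32.4% of all genes), 18 (32%), 26 (35.2%), 21 (31.2%) and 22 (36%). The share of bright genes was not counted for this measure.

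Later times were also set directly against earlier ones. From 2 h to 6 h, 10 genes rose and 2 fell, when 4.27% of all genes rose and 4.89% fell, 9.16% together and 16.4% of genes above the median mean. The rises included Pik3cb, Pdpk1 and Mtor, and the decreases were Grb14 and Pik3r3. From 6 h to 24 h, Slc2a1 and Grb14 rose and Irs2, Pik3r1 and Cbl fell, when 5.51% of all genes rose and 6.02% fell, 11.5% together and 21% of genes above the median mean. That count of 5 became 2 when the 24 h replicate 2 was left out, and 3 when the 6 h replicate 2 was. From 24 h to 48 h, Pik3r1 and Cbl fell, when 0.713% of all genes rose and 0.745% fell, 1.46% together and 2.13% of genes above the median mean. Those calls came to 0 or 1 whenever 1 of the 6 arrays was left out. From 2 h to 48 h, 7 rose and 9 fell, when 12.2% of all genes rose and 11.5% fell, 23.7% together and 39.1% of genes above the median mean. Arrays of the later and earlier time did not overlap for 21, 14, 9 and 18 of the 31 genes in these comparisons, in the same order. Among all genes the shares were 28.7%, 28%, 18.7% and 37.9%, and the share of bright genes was not counted.

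**Figure D1:**
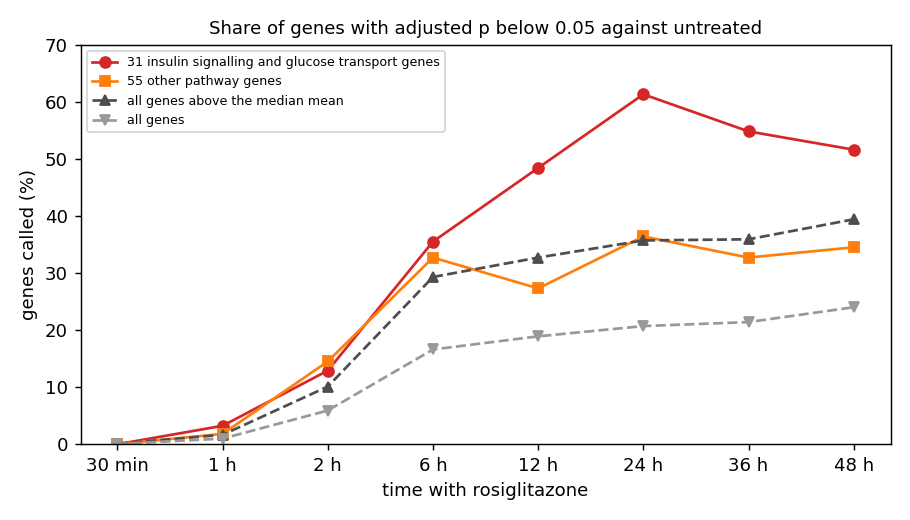
Share of genes (y axis, percent) with a limma adjusted p below 0.05 against untreated at each time with rosiglitazone (x axis, not to scale), for the 31 genes, 55 other pathway genes, all genes and all genes above the median mean. The share of the 31 genes went from 0% at 30 min to 61.3% at 24 h and was 51.6% at 48 h, when 24% of all genes were called.

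Irs2, an adaptor that the insulin receptor phosphorylates, responded first. Its untreated arrays read 7.94, 8.16 and 8.05, and the arrays at 30 min read 8.46, 8.36 and 8.44. It reached 8.74, 8.95 and 8.84 at 1 h, 8.72, 8.80 and 8.79 at 2 h, and 8.66, 8.80 and 8.67 at 6 h. Every treated array up to this time lay above every untreated one. The later arrays read 8.62, 8.35 and 8.60 at 12 h, 8.47, 8.40 and 8.51 at 24 h, 8.50, 8.46 and 8.32 at 36 h, and 8.40, 8.24 and 8.30 at 48 h, still without overlap with the untreated arrays. The change of 0.37 ± 0.077 at 30 min did not pass (adjusted p = 0.092). Irs2 rose by 0.80 ± 0.077 at 1 h (1.74-fold, adjusted p = 4.01e-07) and by 0.66 ± 0.077 after 6 h (adjusted p = 9.4e-07). At 48 h the rise was 0.27 ± 0.077 (adjusted p = 0.0123). That call ended without untreated replicate 1 (adjusted p = 0.0784) and without the 48 h replicate 1 (adjusted p = 0.0674). Set directly against 2 h, the 48 h arrays were lower by limma (-0.46 ± 0.077, adjusted p = 5.75e-05).

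Irs1, the main IRS adaptor of fat cells, fell slowly. Its untreated arrays read 10.04, 10.04 and 9.92, those at 30 min 10.01, 9.86 and 10.00, and those at 1 h 9.98, 9.98 and 9.99. They read 9.84, 9.86 and 9.90 at 2 h and 9.83, 9.83 and 9.81 at 6 h, below all untreated arrays but without a call (adjusted p = 0.375 and 0.101). From 12 h on the decrease passed: the arrays read 9.77, 9.55 and 9.79 at 12 h, 9.64, 9.75 and 9.65 at 24 h, 9.38, 9.70 and 9.58 at 36 h, and 9.56, 9.49 and 9.42 at 48 h. The change was -0.30 ± 0.074 at 12 h (adjusted p = 0.00448) and -0.51 ± 0.074 after 48 h (1.42-fold lower, adjusted p = 8.03e-06). From 12 h to 48 h Irs1 was therefore lower than in untreated cells at the same times at which Irs2 was higher. Insr, the receptor itself, rose by 0.34 ± 0.096 at 6 h (adjusted p = 0.0154) and 0.32 ± 0.096 after 24 h (adjusted p = 0.0169). The call at 6 h ended without untreated replicate 2 (adjusted p = 0.0802) or the 6 h replicate 3 (adjusted p = 0.0565). The call at 24 h ended without untreated replicate 2 (adjusted p = 0.0874), the 24 h replicate 1 (adjusted p = 0.0845) or the 24 h replicate 2 (adjusted p = 0.0746). At 6 h the second probe set of Insr, which was not used in the test, gave 0.34 as well.

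**Figure D2:**
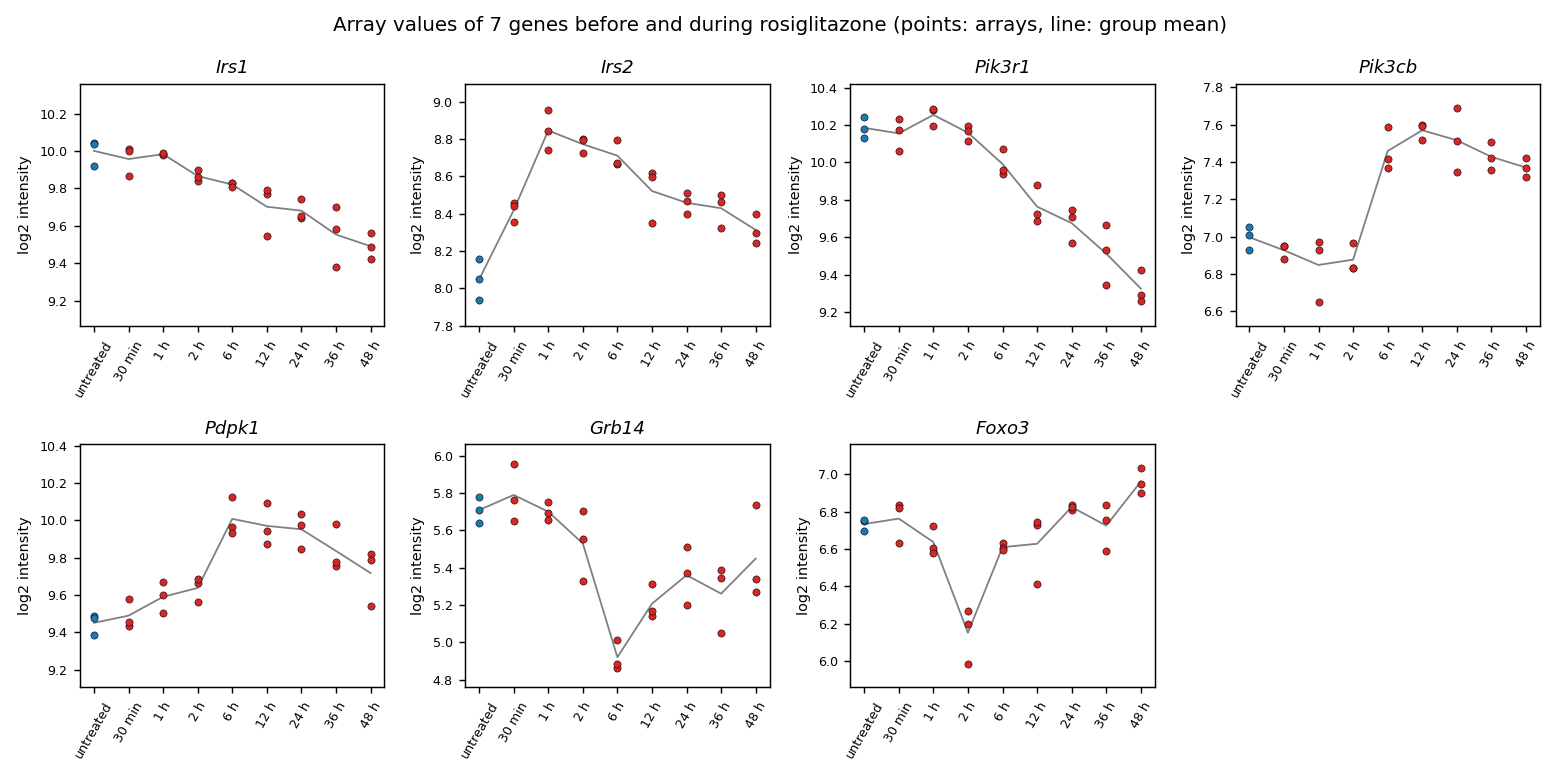
Log2 intensity (y axis, the same span of 1.3 units in every panel) of the 7 genes that passed the F-test with a change of at least 0.5, by time with rosiglitazone (x axis, not to scale). Points are single arrays, blue for untreated and red for treated, and lines join group means. Irs2 peaks at 1 h, Pik3r1 and Irs1 are lowest at 48 h, and Foxo3 is lowest at 2 h.

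PI3-kinase is a pair of a regulatory and a catalytic subunit, with several genes for each. Against untreated cells each of the 3 regulatory genes fell at some times, though the calls of Pik3r3 rested on single arrays. Of the 3 catalytic genes Pik3cb rose, and Pik3ca and Pik3cd did not pass. Pik3r1, which encodes the main regulatory subunit p85α and its shorter forms, had the largest change at 48 h among the 31 genes. Its arrays read 10.24, 10.13 and 10.18 untreated, 10.17, 10.06 and 10.23 at 30 min, 10.20, 10.28 and 10.29 at 1 h, and 10.11, 10.20 and 10.17 at 2 h. These first treated groups overlapped the untreated arrays. At 6 h they read 9.94, 9.96 and 10.07, at 12 h 9.88, 9.69 and 9.73, at 24 h 9.71, 9.75 and 9.57, at 36 h 9.34, 9.67 and 9.53, and at 48 h 9.42, 9.29 and 9.26. All of these lay below the untreated arrays. The change was -0.42 ± 0.076 at 12 h (adjusted p = 0.000225) and -0.86 ± 0.076 after 48 h (1.82-fold lower, adjusted p = 4.85e-09). Pik3r2 (p85β) fell at 5 times, with its largest change at 12 h (-0.47 ± 0.092, adjusted p = 0.000499) and -0.39 ± 0.092 after 48 h (adjusted p = 0.00219). Its call at 6 h (-0.38 ± 0.092, adjusted p = 0.00482) ended without the 6 h replicate 3 (-0.28, adjusted p = 0.0547). Pik3r3 (p55γ) fell by 0.39 at 12 h (SE 0.10, adjusted p = 0.00784), a call that ended without untreated replicate 1 (adjusted p = 0.0558). Its changes at 24 h and 36 h (-0.33 and -0.31, adjusted p = 0.0247 and 0.0313) lost their call after centring each array on its median (adjusted p = 0.0513 and 0.0659). They also lost it without untreated replicate 1 (adjusted p = 0.132 and 0.157), the 24 h call without any of the 24 h arrays (adjusted p from 0.0525 to 0.0762), and the 36 h call without untreated replicate 2 (adjusted p = 0.0539) or the 36 h replicate 1 (adjusted p = 0.182). At 48 h Pik3r3 was not called (-0.14).

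Pik3cb encodes the catalytic subunit p110β, which receptors coupled to G proteins can also activate. Its arrays read 7.01, 6.93 and 7.05 untreated, 6.95, 6.88 and 6.95 at 30 min, 6.93, 6.65 and 6.97 at 1 h, and 6.83, 6.83 and 6.97 at 2 h. They stepped up between 2 h and 6 h, to 7.37, 7.59 and 7.42. Later values were 7.60, 7.59 and 7.52 at 12 h, 7.51, 7.69 and 7.34 at 24 h, 7.42, 7.51 and 7.35 at 36 h, and 7.37, 7.32 and 7.42 at 48 h. From 6 h on, all arrays lay above all untreated, 30 min, 1 h and 2 h arrays. Pik3cb rose by 0.46 ± 0.084 at 6 h (adjusted p = 0.00029), 0.57 ± 0.084 at 12 h (1.49-fold, adjusted p = 1.74e-05) and 0.37 ± 0.084 after 48 h (adjusted p = 0.00155). The direct change from 2 h to 6 h was 0.58 ± 0.084 (adjusted p = 4.59e-05). Pik3ca (p110α), the catalytic subunit that carries most insulin signalling in fat and liver, did not pass the F-test (adjusted p = 0.136), and its largest change was 0.18 ± 0.082 at 48 h (adjusted p = 0.127). Pik3cd (p110δ), a form typical of leukocytes, had a mean of 3.16 over the 27 arrays and did not pass either (F-test adjusted p = 0.119). Its signal was as dim as that of the macrophage and endothelium markers, so its lack of a call says little.

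**Figure D3:**
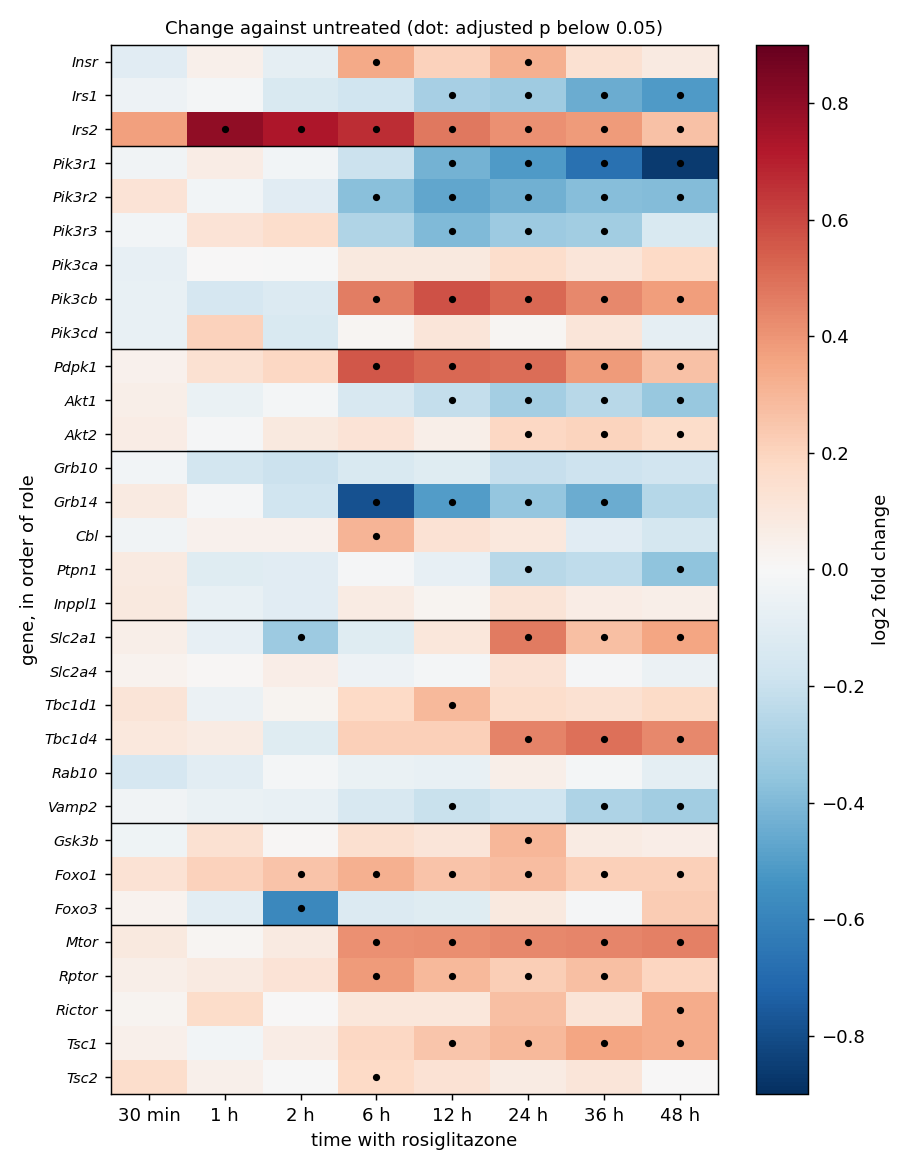
Log2 fold change against untreated (colour) of the 31 genes (rows, grouped by role with lines between groups) at 8 times (columns, not to scale), with a dot where the limma adjusted p was below 0.05. Rows run from receptor and adaptors through PI3-kinase, PDK1 and Akt, restraints, glucose transport and Akt targets to mTOR and TSC. Irs2 is called at 7 times, and the largest change at 48 h is that of Pik3r1 (-0.86).

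Pdpk1 encodes PDK1, the kinase that phosphorylates Akt in its activation loop. Its arrays read 9.49, 9.39 and 9.48 untreated, 9.43, 9.46 and 9.58 at 30 min, 9.50, 9.60 and 9.67 at 1 h, and 9.56, 9.66 and 9.69 at 2 h. The 1 h and 2 h arrays lay above the untreated ones without a call (adjusted p = 0.625 and 0.235). At 6 h the arrays read 9.96, 9.93 and 10.13, at 12 h 10.09, 9.87 and 9.94, at 24 h 10.03, 9.97 and 9.85, at 36 h 9.75, 9.98 and 9.77, and at 48 h 9.82, 9.79 and 9.54. Pdpk1 rose by 0.56 ± 0.083 at 6 h (1.47-fold, adjusted p = 2.74e-05) and by 0.27 ± 0.083 after 48 h (adjusted p = 0.0192). The 48 h call ended without untreated replicate 2 (adjusted p = 0.0843), the 48 h replicate 1 (adjusted p = 0.101) or the 48 h replicate 2 (adjusted p = 0.0854).

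Akt1 fell at the late times, and Akt2 had small positive changes whose calls rested on single arrays. Akt1, the broadly expressed form, changed by -0.31 ± 0.067 at 24 h (adjusted p = 0.00117) and -0.34 ± 0.067 after 48 h (adjusted p = 0.000368). Akt2, the form tied most closely to insulin-stimulated glucose uptake, rose by 0.20 ± 0.055 at 36 h (adjusted p = 0.00883), and its other probe set gave 0.23 at that time. It was also called higher at 24 h (0.19 ± 0.055, adjusted p = 0.0145), and after 48 h the change was 0.17 ± 0.055 (adjusted p = 0.0268). Without untreated replicate 1 all 3 calls of Akt2 ended (adjusted p = 0.0868 at 24 h, 0.0598 at 36 h and 0.133 at 48 h). The 24 h call also ended without the 24 h replicate 3 (adjusted p = 0.0555), and the 48 h call without untreated replicate 3 (adjusted p = 0.0678) or the 48 h replicates 1 and 2 (adjusted p = 0.0693 and 0.0649). With only the 6 arrays compared in the model, Akt2 passed at none of these times (adjusted p = 0.082, 0.123 and 0.133).

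Of the 5 members listed as restraints of the signal, Grb14, Ptpn1, Cbl, Grb10 and Inppl1, the first had the largest change. GRB14 is an adaptor that binds the activated insulin receptor and blocks its kinase. Its arrays read 5.71, 5.64 and 5.78 untreated, 5.76, 5.96 and 5.65 at 30 min, 5.69, 5.75 and 5.66 at 1 h, and 5.70, 5.55 and 5.33 at 2 h. At 6 h they read 4.86, 4.88 and 5.02, the lowest of the course. They then read 5.14, 5.31 and 5.17 at 12 h, 5.37, 5.51 and 5.20 at 24 h, 5.34, 5.05 and 5.39 at 36 h, and 5.34, 5.27 and 5.74 at 48 h, when 1 array again lay among the untreated values. The change was -0.79 ± 0.11 at 6 h (1.73-fold lower, adjusted p = 1.84e-05), -0.50 ± 0.11 at 12 h (adjusted p = 0.00218) and -0.45 ± 0.11 after 36 h (adjusted p = 0.00486), and at 48 h -0.26 ± 0.11 was not called (adjusted p = 0.103). The 24 h call (-0.35 ± 0.11, adjusted p = 0.0285) ended without untreated replicate 1 or 3 (adjusted p = 0.0646 and 0.105), without the 24 h replicate 1 or 3 (adjusted p = 0.0675 and 0.147), and after centring (adjusted p = 0.0524). From 6 h to 24 h Grb14 rose again by 0.44 ± 0.11 (adjusted p = 0.0106), a call that ended without the 24 h replicate 2 (0.36, adjusted p = 0.0764).

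Ptpn1, the phosphatase PTP1B that removes phosphate from the insulin receptor, fell by 0.37 at 48 h (SE 0.086, adjusted p = 0.00234). Cbl, an adaptor and ubiquitin ligase at the receptor, rose by 0.31 ± 0.063 at 6 h alone (adjusted p = 0.0011). Grb10, another adaptor that inhibits the receptor, and Inppl1, the lipid phosphatase SHIP2, passed at no time and did not pass the F-test (adjusted p = 0.71 and 0.075). Grb10 had a mean of 3.70 over the 27 arrays, as dim as the macrophage, endothelium and muscle markers, so its lack of a call says little. The probe sets of Inppl1 gave 0.11 and 0.21 at 24 h.

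The 2 glucose transporters behaved differently. Slc2a4 encodes GLUT4, the transporter that insulin moves to the surface. Its arrays read 10.06, 10.15 and 10.08 in untreated cells, 10.24, 10.24 and 10.22 at 24 h, and 10.18, 10.00 and 9.97 at 48 h. The 24 h arrays lay above the untreated ones, and the 48 h arrays overlapped them. The change was 0.13 at 24 h (95% interval -0.0068 to 0.27, adjusted p = 0.192) and -0.051 at 48 h (95% interval -0.19 to 0.088, adjusted p = 0.657), and the F-test did not pass (adjusted p = 0.337). The intervals at the 8 times together ran from -0.19 to 0.27.

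Slc2a1 encodes GLUT1, the transporter of basal glucose uptake, and was the gene called in both directions. Its untreated arrays read 10.79, 10.91 and 10.85. It was lowest at 2 h, at 10.50, 10.47 and 10.61, and highest at 24 h, at 11.40, 11.32 and 11.26, with 11.28, 11.22 and 11.12 at 48 h. None of these treated groups overlapped the untreated arrays. The change was -0.33 ± 0.068 at 2 h (adjusted p = 0.00295), then 0.47 ± 0.068 at 24 h (1.39-fold, adjusted p = 1.02e-05), 0.27 ± 0.068 at 36 h (adjusted p = 0.00436) and 0.36 ± 0.068 after 48 h (adjusted p = 0.000287). Each of these calls held when any 1 of the 6 arrays compared was left out.

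**Figure D4:**
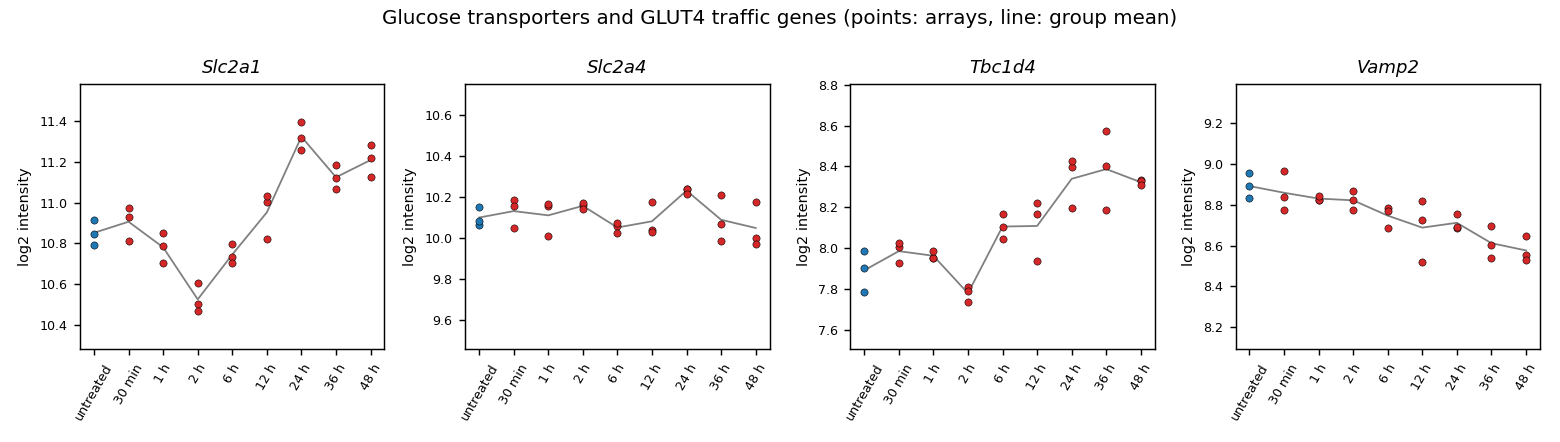
Log2 intensity (y axis, the same span of 1.3 units in every panel) of Slc2a1, Slc2a4, Tbc1d4 and Vamp2 by time with rosiglitazone (x axis, not to scale). Points are single arrays, blue for untreated and red for treated, and lines join group means. Slc2a1 falls to a mean of 10.53 at 2 h and stands at 11.32 at 24 h, while the group means of Slc2a4 stay between 10.05 and 10.23.

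Among genes of GLUT4 traffic, Tbc1d4 rose and Vamp2 fell. Tbc1d4 encodes AS160, the Akt substrate that holds GLUT4 vesicles inside the cell until it is phosphorylated. It rose by 0.45 ± 0.084 at 24 h (adjusted p = 0.000256), 0.50 ± 0.084 at 36 h (adjusted p = 7.46e-05) and 0.43 ± 0.084 after 48 h (adjusted p = 0.000354). Its relative Tbc1d1 rose at 12 h (0.30 ± 0.084, adjusted p = 0.014), a call that ended without untreated replicate 1 (adjusted p = 0.0593) or the 12 h replicate 3 (adjusted p = 0.0944). Vamp2, a vesicle protein of membrane fusion, fell by 0.32 at 48 h (SE 0.069, adjusted p = 0.00119). Rab10, the GTPase that TBC1D4 acts on, passed the F-test narrowly (adjusted p = 0.0494) and passed at no single time, with its largest change -0.15 ± 0.051 at 30 min (adjusted p = 0.464).

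Of the targets that Akt phosphorylates, the forkhead genes parted at 2 h. Foxo3 had arrays of 6.75, 6.75 and 6.70 untreated, 6.63, 6.83 and 6.82 at 30 min, and 6.72, 6.61 and 6.58 at 1 h. At 2 h they read 6.27, 6.20 and 5.98, below every other array of the course. Values then returned to 6.63, 6.60 and 6.59 at 6 h, 6.73, 6.42 and 6.74 at 12 h, 6.81, 6.84 and 6.83 at 24 h, 6.59, 6.83 and 6.75 at 36 h, and 6.90, 6.95 and 7.04 at 48 h. Foxo3 fell by 0.58 at 2 h (SE 0.084, adjusted p = 4.26e-05), and a change of 0.23 ± 0.084 after 48 h missed the threshold (adjusted p = 0.0511). Set directly against 2 h, it was higher at 48 h by 0.81 ± 0.084 (adjusted p = 6.13e-08). Foxo1, the forkhead factor with the closest ties to insulin-regulated metabolism, rose by 0.25 ± 0.058 at 2 h (adjusted p = 0.00714) and 0.32 ± 0.058 after 6 h (adjusted p = 0.00032). Its call at 2 h ended without untreated replicate 1 (0.22, adjusted p = 0.0538). Gsk3b, the kinase that restrains glycogen synthase, rose at 24 h alone (0.30 ± 0.073, adjusted p = 0.00344).

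Of the 5 genes of the mTOR complexes and TSC, 3 rose and 0 fell at 6 h, where 8.39% of all genes rose, and likewise 3 rose and 0 fell at 48 h, where 12.6% did. Rictor and Tsc1 did not pass at 6 h (0.11 and 0.19, adjusted p = 0.629 and 0.0577). Mtor, the kinase shared by both complexes, rose from 6 h on in a plateau, by 0.41 ± 0.060 at 6 h (adjusted p = 2.3e-05), 0.43 ± 0.060 at 24 h (adjusted p = 5.32e-06) and 0.45 ± 0.060 after 48 h (adjusted p = 2.71e-06). Rptor, the scaffold of mTORC1, rose most at 6 h (0.38 ± 0.073, adjusted p = 0.000481), and at 48 h was not called (0.19). Tsc1, a subunit of the complex that restrains mTORC1, rose by 0.36 ± 0.067 at 36 h (adjusted p = 0.000244). Tsc2, its partner, rose by 0.18 ± 0.057 at 6 h (adjusted p = 0.0302), but that call ended without any 1 of the 6 arrays compared (adjusted p between 0.0513 and 0.108). Rictor, the scaffold of mTORC2, rose by 0.33 ± 0.11 at 48 h (adjusted p = 0.0348) without passing the F-test (adjusted p = 0.158). This call ended without untreated replicate 2 or 3 (adjusted p = 0.146 and 0.106) and without the 48 h replicate 2 or 3 (adjusted p = 0.112 and 0.0799).

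A further list of 60 genes of the same pathway, drawn up by role and also with earlier results known, gave 55 measured genes. Of these, 37 (67.3%) passed the F-test, against 40.5% of all genes and 66.1% of genes above the median mean, so the share was close to that of bright genes. Counts higher and lower were 6 and 12 at 6 h (32.7%, against 16.6% of all genes and 29.3% of bright genes). They were 11 and 9 at 24 h (36.4%, against 20.7% and 35.7%), and 9 and 10 at 48 h (34.5%, against 24% and 39.4%). Median changes at those times were 0.045, 0.048 and 0.014. Among 16 adaptors and inhibitors near the receptor, 2 rose and 4 fell at 48 h. Among 12 genes of the lipid and kinase arm, 5 rose and 1 fell. Among 16 genes of GLUT4 vesicles and docking, 1 rose and 3 fell. Among 11 genes of the mTOR arm, 1 rose and 2 fell.

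The 8 genes of this list named here were picked by their F-test p or the size of their change, and their roles differ. Socs3, a cytokine-induced inhibitor that binds the insulin receptor, fell by 0.94 at 24 h (SE 0.16, adjusted p = 6.67e-05). Trib3, a pseudokinase that binds Akt, fell by 0.63 at 6 h (SE 0.099, adjusted p = 5.03e-05). Deptor, an inhibitory partner of mTOR, fell by 0.65 at 6 h (SE 0.097, adjusted p = 3.13e-05). Ddit4, an inducible inhibitor of mTORC1, and Sesn2, which restrains mTORC1 when leucine is short, had their largest decreases early (-1.499 ± 0.17 at 1 h and -0.70 ± 0.083 at 2 h, adjusted p = 5.01e-06 and 2.86e-06). Ddit4 was also called higher at 24 h. That call ended without untreated replicate 2 (0.44, adjusted p = 0.118), untreated replicate 3 (0.53, adjusted p = 0.0573) or the 24 h replicate 1 (0.45, adjusted p = 0.111). Lrp1, an endocytic receptor found in GLUT4 vesicles, changed by -0.62 ± 0.065 at 36 h (adjusted p = 8.67e-08), Sgk1, a kinase related to Akt, by -0.62 ± 0.084 at 24 h (adjusted p = 3.87e-06), and the adaptor Shc1 by -0.43 ± 0.085 at 48 h (adjusted p = 0.000436). For each of these 8 genes the largest change held its call when any 1 of the 6 arrays compared was left out.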

How the data were processed

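The deposited values are log2 intensities of 28815 probe sets on 27 Affymetrix Mouse Gene 1.1 ST arrays. Per the submitters' processing notes, the authors used Partek with RMA (background correction, normalization and probe summary), and versions are not given in the sources used here. The platform annotation gave 1 symbol to 21153 probe sets, several to 1867 and none to 5795. No coordinates of probe sets are printed, and 0 pairs of arrays were identical. No filter on dim genes was applied.

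A model of 9 group means over the 27 arrays used lmFit and eBayes of limma 3.58.1 (R 4.3.3), without covariates, and tests were two-sided. The fit was tested on simulated data with independent noise and changes planted at 48 h. Such data cannot show how the fit performs where genes or arrays share deviations. Each time was compared with untreated, and 4 pairs of treated times with each other. The comparisons with untreated share its 3 arrays. Tables and plots used Python 3.11.15, pandas 2.3.3, numpy 2.4.6 and matplotlib 3.10.9.

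The members, lists and times were chosen with earlier results of these data known. Values of every array are given for genes that passed the F-test with a change of at least 0.5, and those of Slc2a1 and Slc2a4 at selected times in addition. Other pathway genes are named by the 6 smallest F-test p and 2 more by size of change. Alternatives were a replicate block, genes above the median mean (4.76), averaging probe sets per gene, median centring, renewed quantile normalization, array weights, a variance with trend and robust settings, the 6 arrays compared alone, and each array left out.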

Additional observations from a re-analysis of the deposited data

Results flagged for a closer look

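Levels at different times after rosiglitazone was added differed for several genes by limma's test of the later time against the earlier. The values below are the changes that passed it, and drug, solvent, time in culture and handling cannot be told apart in them.

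From 2 h to 6 h (9.16% of all genes called), 10 genes were higher and 2 lower. The changes were Insr 0.42, Pik3cb 0.58, Pdpk1 0.37, Cbl 0.27, Slc2a1 0.22, Tbc1d4 0.33, Foxo3 0.46, Mtor 0.33, Rptor 0.26, Tsc2 0.18, Pik3r3 -0.43 and Grb14 -0.61. The call of Tsc2 ended without any 1 of the 6 arrays compared (adjusted p up to 0.138). That of Slc2a1 ended without the 2 h replicates 1 and 2 (adjusted p = 0.131 and 0.169) and the 6 h replicates 1, 2 and 3 (adjusted p = 0.151, 0.0844 and 0.0654). Those of Rptor ended without the 2 h replicate 1 (adjusted p = 0.161) and the 6 h replicates 1 and 2 (adjusted p = 0.0558 and 0.132). Tbc1d4 lost its call without the 2 h replicate 3 (adjusted p = 0.0513) or the 6 h replicate 2 (adjusted p = 0.0603), and Pik3r3 without the 2 h replicate 2 (adjusted p = 0.0534).

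From 6 h to 24 h (11.5% of all genes called), the changes were Slc2a1 0.58, Grb14 0.44, Irs2 -0.25, Pik3r1 -0.32 and Cbl -0.21. The call of Irs2 ended without the 6 h replicates 1 and 2 (adjusted p = 0.05 and 0.155) and the 24 h replicates 1 and 2 (adjusted p = 0.0739 and 0.133). That of Cbl ended without the 6 h replicates 2 and 3 (adjusted p = 0.144 and 0.0727) and the 24 h replicates 2 and 3 (adjusted p = 0.0834 and 0.104). Grb14 lost its call without the 24 h replicate 2 (adjusted p = 0.0764).

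From 24 h to 48 h (1.46% of all genes called), Pik3r1 was lower by a further -0.35 and Cbl changed by -0.26. The call of Cbl ended without any 1 of the 6 arrays compared (adjusted p up to 0.154). That of Pik3r1 ended without the 24 h replicates 1 and 2 (adjusted p = 0.0861 and 0.0922) and the 48 h replicates 2 and 3 (adjusted p = 0.062 and 0.0971).

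From 2 h to 48 h (23.7% of all genes called), 7 genes were higher and 9 lower. Those higher were Pik3cb 0.49, Slc2a1 0.68, Tbc1d4 0.54, Foxo3 0.81, Mtor 0.37, Rictor 0.33 and Tsc1 0.27. Those lower were Irs1 -0.38, Irs2 -0.46, Pik3r1 -0.84, Pik3r2 -0.29, Pik3r3 -0.30, Akt1 -0.32, Cbl -0.20, Ptpn1 -0.26 and Vamp2 -0.25. The calls of 5 genes rested on single arrays. Pik3r2 lost its call without the 2 h replicates 2 and 3 (adjusted p = 0.0713 and 0.0657) and the 48 h replicate 2 (adjusted p = 0.0813). Pik3r3 kept its call only without the 48 h replicate 3 (adjusted p up to 0.282 otherwise), and Rictor only without the 48 h replicate 1 (adjusted p up to 0.12 otherwise). Cbl and Ptpn1 lost theirs without the 2 h replicates 2 and 3 or the 48 h replicates 1 and 3 (adjusted p from 0.058 to 0.0891 and from 0.053 to 0.209).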

How the results depend on the processing

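Of the 83 calls of the 31 genes against untreated, 56 held under every alternative run, and no called change reversed. The number of genes called at 30 min was 0, and 1 with genes above the median mean alone, with a trended and robust variance or with array weights. At 1 h it was 1, and 2 with genes above the median mean. At 36 h it was 17, and 11 with only the 6 arrays compared. From 6 h to 24 h it was 5, against 3 with the replicate block, 8 with genes above the median mean and 10 with array weights, and from 2 to 6 with single arrays left out (3 when the 6 h replicate 2 and 2 when the 24 h replicate 2 was dropped). From 24 h to 48 h it was 2, against 1 with the replicate block, 1 after median centring, 0 with only the 6 arrays compared, and from 0 to 1 with single arrays left out. Same-numbered arrays did not deviate together (correlations with untreated from -0.445 to 0.105, and 0 of 27 arrays closest to their own number), so pairing by these numbers was not seen. Between groups the mean correlation was -0.122 for the same number and 0.0609 for other numbers. Deviations were taken from the mean of each group's 3 arrays, so the second value largely follows from the first and is no separate check. At 36 h the correlations with untreated were -0.445, -0.386 and -0.261 for replicates 1, 2 and 3. The main fit treats the arrays as independent. Batches or pairs under another numbering were not tested. At the other times and over the course, the counts stayed within 1.5 times of those given under every alternative. The causes were not tested. With 3 arrays a group, a gene at the median SE of 0.088 has a wide interval, and smaller changes may have been missed.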
